A study of Arabidopsis thaliana with 8 samples.

Results

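The genes described here changed in opposite directions during the subjective night in *fhy3* and in wild type seedlings kept in constant red light. The members were chosen by their measured signals, as the probe sets of the Affymetrix ATH1 array whose signal at 40 h was at least 1.3-fold above each of the signals at 24, 32, and 48 h in 1 genotype and at least 1.3-fold below each of them in the other. Only probe sets with a mean signal of at least 100 over the 8 arrays were considered, which left 12896 of 22810. Of these, 61 were members. A set of 48 was high at 40 h in *fhy3* and low in wild type, and 13 were low at 40 h in *fhy3* and high in wild type. A gene could be named for 26 members, 20 in the larger set and 6 in the smaller. For 35 members the table of probe sets used here lists no gene, and these are called by their probe set.

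The *fhy3-4* mutant was set against wild type seedlings of the same No-0 background. Seedlings of both genotypes were entrained for 7 days in cycles of 12 h white light and 12 h darkness at 21 degrees C before transfer to constant red light, and about 100 whole seedlings were pooled for each sample at 24, 32, 40, and 48 h. With expected dawn at 24 and 48 h, the 32 h sample fell in the subjective afternoon and the 40 h sample in the subjective night. Each genotype and time had 1 array, so that no time point has a biological replicate and the mutant is represented by 1 allele. The *FHY3* gene itself was not analysed here, because the table used here pairs it with no probe set, and the genotype labels were not checked on it.

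In Arabidopsis the circadian clock sets many transcripts to rise and decline at fixed times of day, and these rhythms continue in constant light. FHY3 is a transcription factor derived from a transposase that acts in phytochrome A signalling and in the light input to the clock. A transcript that peaks in the subjective night in wild type is called night-phased, and a transcript with its trough at that time is day-phased. The sampling at 8 h intervals gives each rhythm a single night value.

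The array of *fhy3* at 40 h had the highest mean signal, 439, and the other arrays had means of 402 to 418. Its median signal, 143, lay within the 132 to 145 of the other arrays. The 48 members of the larger set were high on that same array, and their dependence on the scaling of the arrays is given where single genes are described. Leaf mesophyll markers were strong on every array, with 4 probe sets summing to 25659 to 27161 on the *fhy3* arrays and to 24987 to 30784 on those of wild type. Whole seedlings were sampled, and fewer cells of a type cannot be told apart from less RNA per cell in any value given here.

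Opposite night changes were rare beside all the night changes seen in each genotype. In *fhy3*, 1162 probe sets were high at 40 h (9.01% of those considered) and 1076 were low (8.34%). In wild type, 304 were high (2.36%) and 705 were low (5.47%). The 48 members high in *fhy3* and low in wild type (0.372%) made up 4.13% of the probe sets high in *fhy3* and 6.81% of those low in wild type. Over all considered, the larger shares of 5.47% were low in wild type and 9.01% high in *fhy3*. The 13 members low in *fhy3* and high in wild type (0.101%) made up 1.21% of the probe sets low in *fhy3* and 4.28% of those high in wild type. These shares, too, were below the 2.36% high in wild type and the 8.34% low in *fhy3* over all considered. By comparison, 132 probe sets were high at 40 h in both genotypes and 311 were low in both, which is 43.4% of those high and 44.1% of those low in wild type. The membership rule used all 8 signals, and the night values below are therefore a description with no test.

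**Figure D1:**
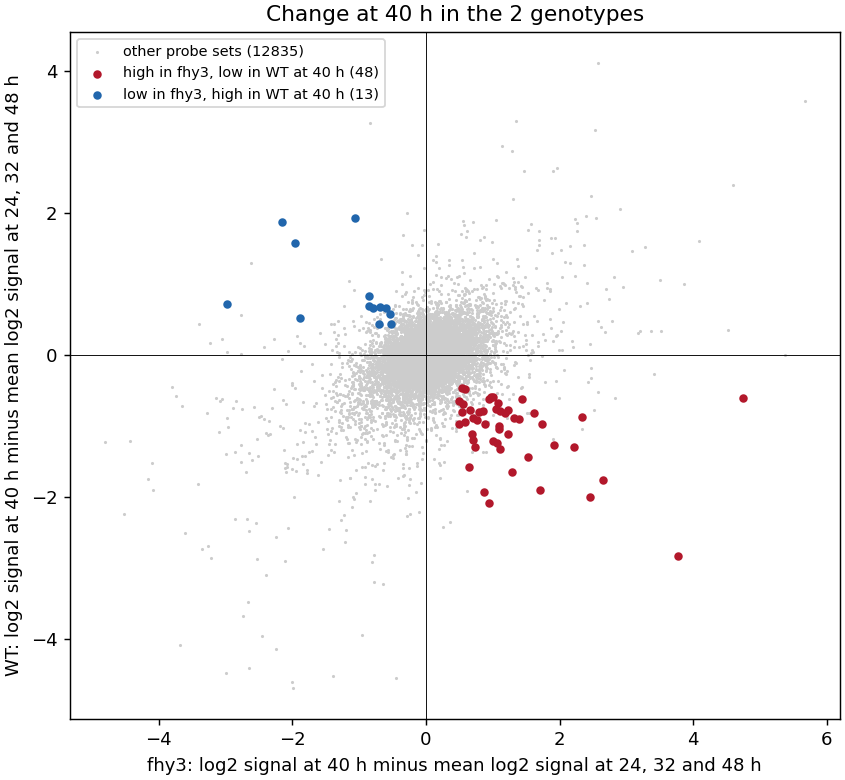
Change at 40 h in *fhy3* (horizontal axis) and in wild type (vertical axis), each as the log2 signal at 40 h minus the mean log2 signal at 24, 32, and 48 h, for the 12896 probe sets considered. The 48 red points (high in *fhy3*, low in wild type) and the 13 blue points (low in *fhy3*, high in wild type) were placed in their quadrants by the rule, and most of the other 12835 lie close to 0 on both axes.

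Among the 48 members of the larger set, the 40 h signal differed from the mean of the other times by a median of 1.06 on the log2 scale in *fhy3* and by −0.93 in wild type. The medians over all probe sets considered were 0.04 and −0.02. In the set of 13, the medians were −0.85 in *fhy3* and 0.67 in wild type. The largest change in the larger set reached 4.75 in *fhy3* and −2.83 in wild type. At 40 h the ratio of *fhy3* to wild type ran between 1.81 and 50.3 in the larger set, with a median of 3.74. For the smaller set it was 0.0709 to 0.692, with a median of 0.452.

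**Figure D2:**
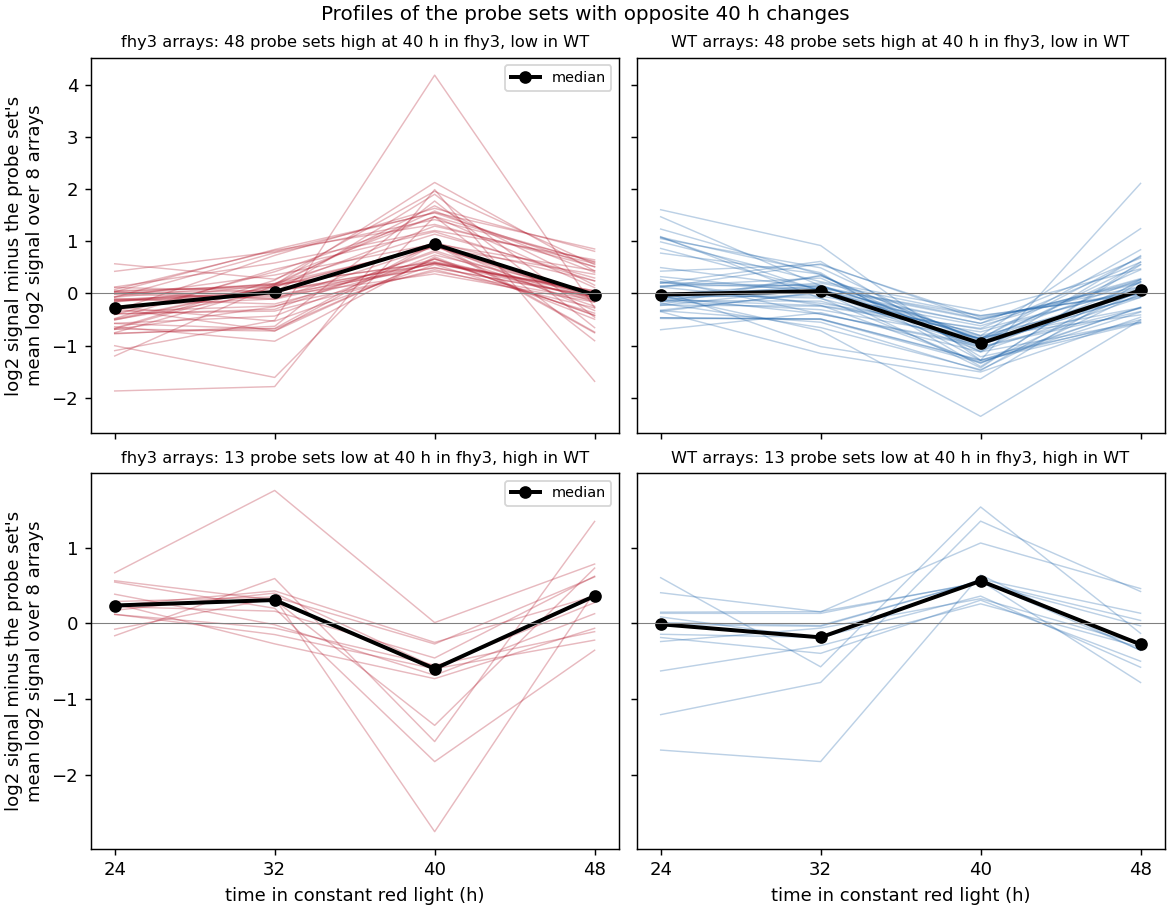
Signal of each member at 24, 32, 40, and 48 h in constant red light, as log2 signal minus the mean log2 signal of that probe set over all 8 arrays, in *fhy3* (left) and wild type (right). Thin lines are probe sets, with 48 in the upper panels and 13 in the lower, and the thick black line is their median, which departs from the level of the other times at 40 h in opposite directions in the genotypes.

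The 40 h difference stood beside different levels at the other times. In 19 of the 48 members of the larger set *fhy3* was below wild type at each of 24, 32, and 48 h and above it only at 40 h, in 9 it was above wild type at all 4 times, and in 20 its rank varied. These 3 patterns are described in turn.

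Among the genes with low *fhy3* signals outside the night, *AT3G45730* had the deepest night trough in wild type of all members and the widest night peak in *fhy3* after *AT4G33720*. Its signals at 24, 32, 40, and 48 h were 22.4, 23.8, 327, and 25.5 in *fhy3*, against 250.1, 155, 33.8, and 355 in wild type. The *fhy3* signal at 40 h was 12.8-fold its nearest other signal, and the lowest other wild type signal was 4.60-fold that at 40 h. The other *fhy3* signals are near 20.7, the floor set for the tests, and its fold in *fhy3* depends on signals that low. The *fhy3* profile was thus near the low end of its range at all times but 40 h, where it came close to the wild type signal at dawn. *AT5G60250* had the same form, with 66.3, 73.4, 388, and 72.0 in *fhy3* and 239, 117, 42.2, and 172 in wild type. Its night signal in *fhy3* was above all 4 wild type signals, by 1.63-fold over the highest.

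*AT2G45460*, of the same pattern, had signals of 142, 117, 361, and 157 in *fhy3* and 440.2, 259, 176, and 308 in wild type. *AT5G48020* had 466, 497, 1086, and 546 in *fhy3* and 768, 621, 412, and 748 in wild type. The night signal of *fhy3* was above the wild type range for *AT5G48020* and within it for *AT2G45460*. Of the remaining named genes with this pattern, *AT3G22750* and *AT1G15410* had night signals in *fhy3* above those of wild type at any time, by 1.72-fold and 1.23-fold, and *AT1G72790* was at 0.936 of the highest wild type signal. With quantile normalisation or with arrays scaled to the same median *AT1G15410* was under the 1.3-fold threshold, as was *AT1G72790* with quantile normalisation.

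Some unnamed members, though not all, gave this pattern at higher signals. Probe set 257809_at, the member with the highest mean signal, had 1479, 1374, 3491, and 1645 in *fhy3*, against 4017, 2301, 1481, and 3534 in wild type. Probe set 259224_at had 608, 451, 1427, and 440.2 in *fhy3* and 1583, 695, 407, and 1214 in wild type. In both of these the genotypes exchanged ranks at 40 h while their ranges overlapped over most of their width. Probe sets 248668_at and 255500_at reached 481 and 482 in *fhy3* at 40 h, against 112 and 98.7 in wild type at the same time. Outside the night 248668_at stayed at 144 to 154 in *fhy3* and at 315 to 576 in wild type. Over the 19 members of this pattern the *fhy3* night signal exceeded every wild type signal in 9, and its median ratio to the highest wild type signal was 0.951.

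In the 9 members that were higher in *fhy3* at all 4 times, a night signal above every wild type signal follows from the rule. The median ratio of this night signal to the highest wild type signal was 2.77. *AT3G18280* had 753, 1038, 1599, and 1082 in *fhy3*, against 501, 489.8, 275, and 577 in wild type. *TBL41*, of the TRICHOME BIREFRINGENCE-LIKE family, several members of which acetylate cell wall polysaccharides, had 97.7, 164, 232, and 132 in *fhy3* and 67.1, 65.9, 38.2, and 65.3 in wild type. In both genes the genotypes did not overlap, and the wild type signals outside the night were nearly level. *AT1G23140*, *AT3G47510*, and *AT1G19380* shared the pattern, with 1361, 400.2, and 604 in *fhy3* at 40 h, against 415, 149.9, and 154 in wild type. *AT1G23140* fell short of the 1.3-fold threshold with quantile normalisation, and *AT1G19380* with either scaling tried.

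The remaining 20 members of the larger set were above wild type at 40 h with no fixed rank at the other times, and 19 of these had a night signal in *fhy3* above every wild type signal. *AT4G33720* stood furthest out, with 17.8, 26.7, 696, and 31.6 in *fhy3* and 33.5, 24.2, 13.8, and 38.3 in wild type. It lay between 13.8 and 38.3 on 7 of the 8 arrays, and its signals at 24 h in *fhy3* and at 40 h in wild type were under 20.7, the floor used in the tests (5% of the overall mean signal), so that its 50.3-fold ratio at 40 h rests on a wild type signal under that floor. Its night signal in *fhy3* was 18-fold the highest wild type signal. Without that array its mean signal was 26.5, and it passed the mean of 100 only through it. This held for 6 of the 48 members, *TBL41* and *AT3G22750* among them, *AT3G22750* with a mean of 99.7 over the other 7 arrays, and for *AT4G31360* of the smaller set with 98.3 when its wild type 40 h array was left out.

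*XTH18*, which encodes a xyloglucan endotransglucosylase/hydrolase that remodels cell walls, had 64.1, 165, 645, and 198 in *fhy3* and 125, 157, 72.1, and 116 in wild type. The *fhy3* night signal was 4.11-fold the highest wild type signal, and the dawn signals of *fhy3* differed by 3.1-fold between 24 and 48 h, which is the widest such difference among the 48. *Prx37*, a class III peroxidase, had 318, 559, 909, and 443 in *fhy3* and 324, 153, 109, and 227 in wild type. The genotypes were close at 24 h and apart at 32 h. *AT5G19890* reached 588 in *fhy3* and 85.1 in wild type at 40 h and *AT3G14280* reached 458 and 90.8. *AT3G14280* was under the 1.3-fold threshold with quantile normalisation.

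*AT3G44510*, *AT2G39980*, and *AT3G19970* had smaller night values, of 254, 313, and 252 in *fhy3* and of 90.8, 130.4, and 91.6 in wild type. *AT3G44510* is measured by a second probe set, which had 109, 113, 173, and 109 in *fhy3* and 109.7, 91.6, 81.3, and 172 in wild type. This probe set had the same directions at 40 h and was not a member, since the wild type signal at 32 h was too close to that at 40 h. Of the unnamed members, 249152_s_at had the highest mean signal of this pattern, with 1061, 2041, 3367, and 1750 in *fhy3* and 1458, 1392, 583, and 1539 in wild type. It and 262832_s_at carry the suffix of probe sets that can detect more than 1 transcript, and their signals cannot be assigned to a single gene.

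**Figure D3:**
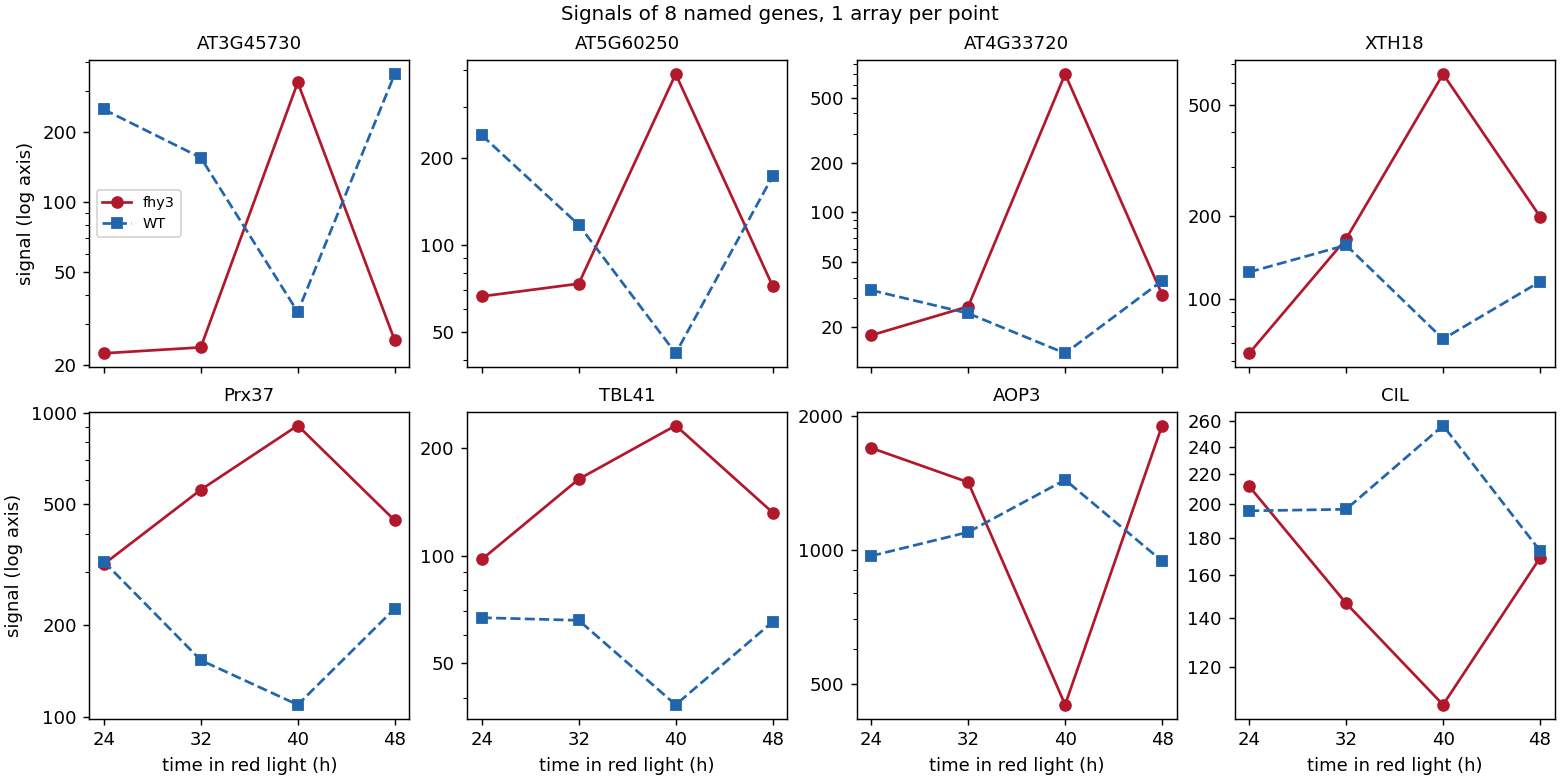
Signals of 8 named genes at 24, 32, 40, and 48 h in *fhy3* (red circles) and wild type (blue squares), with 1 array per point and a log axis that differs between panels. *AT3G45730* and *AT5G60250* cross before and after 40 h, *TBL41* stays higher in *fhy3* throughout, and *AOP3* and *CIL* are low at 40 h in *fhy3* and high in wild type.

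On a list of genes for cell wall remodelling and expansins, no gene other than *XTH18* shared its pattern. The members *TBL41* and *Prx37* are not on this list. Of the listed genes, 11 had a probe set in the range considered, and 7 were low at 40 h in *fhy3* and 6 in wild type. *XTH18* was the only gene of the list that was high at 40 h in *fhy3*. Its close relative *XTH19* had 1010.5, 1425, 956, and 1341 in *fhy3* and 1008, 879.5, 395, and 682 in wild type, so that the wild type trough was shared and the *fhy3* peak was not. *XTH18* is known mainly from roots, and the 3 root markers that could be named were read on the same arrays. Their summed signal was highest on the 40 h array of *fhy3*, at 10048, against 7170 to 8200 on the other *fhy3* arrays and 5854 to 7595 on the wild type arrays. This sum was almost wholly that of *PYK10*, a root beta-glucosidase, at 9737 on that array. The root hair expansin gene *EXPA18* had 352, 612, 164, and 428 in *fhy3* and 246, 149, 98.6, and 261 in wild type. *EXPA7* had 78.7, 154, 148, and 128 in *fhy3* and 38.3, 38.9, 18.45, and 52.8 in wild type. All 3 markers were higher in *fhy3* than in wild type at 40 h. The expansin genes were lowest at 40 h in wild type, as *XTH18* was, while *PYK10* was not, and in *fhy3* only *PYK10* was highest at 40 h. The part of root RNA in the *XTH18* signal was not tested.

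In the smaller set, *AOP3* had the highest signals of the named genes after *AT5G62720*. It encodes a 2-oxoglutarate-dependent dioxygenase that modifies the side chain of aliphatic glucosinolates, defence compounds of the Brassicaceae. *AOP3* had 1693, 1418, 449, and 1901 in *fhy3* and 969, 1096, 1435, and 944 in wild type. Outside the night the *fhy3* signals were above all those of wild type at other than 40 h, and at 40 h *fhy3* was at 0.313 of wild type. The wild type peak was 1.31-fold its nearest other signal, and with quantile normalisation it was under the threshold. The other glucosinolate genes in range were *UGT74B1*, *BCAT4*, and *AOP1*. *UGT74B1*, a glucosyltransferase of glucosinolate synthesis, had *fhy3* signals of 1013 to 1183 with neither a night peak nor a trough, and in wild type it was high at 40 h as well, with 1444 against 634 to 841 at the other times. Neither *BCAT4* nor *AOP1* was high or low at 40 h in either genotype by the 1.3-fold threshold. *BCAT4* had 2019, 2124, 1782, and 2298 in *fhy3* and 1625, 1488, 1931, and 1181 in wild type. Its 40 h signal was thus the lowest in *fhy3* and the highest in wild type, as for *AOP3*, with smaller differences. *AOP1* had 277, 295, 254, and 300 in *fhy3* and 309, 494, 402, and 398 in wild type.

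*CIL*, which is related to *CIA2*, a regulator of genes for protein import into chloroplasts, had 212, 147, 107, and 169 in *fhy3* and 196, 197, 256, and 173 in wild type. The genotypes were within 1.1-fold at both dawns. *CIL* and *AT4G31360*, with 67.5 in *fhy3* and 149 in wild type at 40 h, were also under the threshold with quantile normalisation. *AT5G04120* had the widest night change of the named genes in this set, with 105, 178, 39.9, and 301 in *fhy3* and 51.1, 68.7, 301, and 158 in wild type. Its dawn signals differed by 2.85-fold in *fhy3* and 3.09-fold in wild type between 24 and 48 h, which is wider than the 2.64-fold and 1.91-fold that separated its 40 h signal from the nearest other in *fhy3* and in wild type. *AT5G62720* and *AT4G23680* had 766 and 863 in *fhy3* at 40 h, against 1821 and 1247 in wild type.

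The 7 unnamed members of the smaller set included the largest differences. Probe set 256589_at had 389, 517, 60.7, and 548 in *fhy3* and 543, 455, 857, and 564 in wild type, a ratio of 14.1-fold in favour of wild type at 40 h. Probe set 252367_at had 1666, 1310, 321, and 892 in *fhy3* and 1734, 766, 3317, and 1041 in wild type. At 24 h the genotypes were close in this probe set, and its 40 h signal in wild type was 1.99-fold the highest *fhy3* signal. In 8 of the 13 members the wild type night signal was above every *fhy3* signal, and in none did it reach 2-fold above the highest. In the larger set the *fhy3* night signal was above every wild type signal in 37 of 48 and at least 2-fold above the highest in 17.

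Read time by time, no genotype difference outside the night was common to all members of either set. In the larger set *fhy3* was the higher genotype in 12, 25, 48, and 22 of the 48 members at the successive times, with median ratios of *fhy3* to wild type of 0.805, 1.03, 3.74, and 0.963. The counts in the smaller set were 10, 11, 0, and 8 of 13, with median ratios of 1.29, 1.29, 0.452, and 1.82. In 8 of the 13 members of the smaller set *fhy3* was above wild type at each of 24, 32, and 48 h, and in 1 it was below at each. The same counts over all probe sets considered are not given here. For the larger set the rule asks that the signals outside the night be low in *fhy3* and high in wild type, each relative to the 40 h signal of the same genotype, and for the smaller set the reverse, so that these values are tied to the choice of members. The ratio of single members spread more widely than these medians, for example between 0.0718 and 2.6 at 48 h in the larger set.

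**Figure D4:**
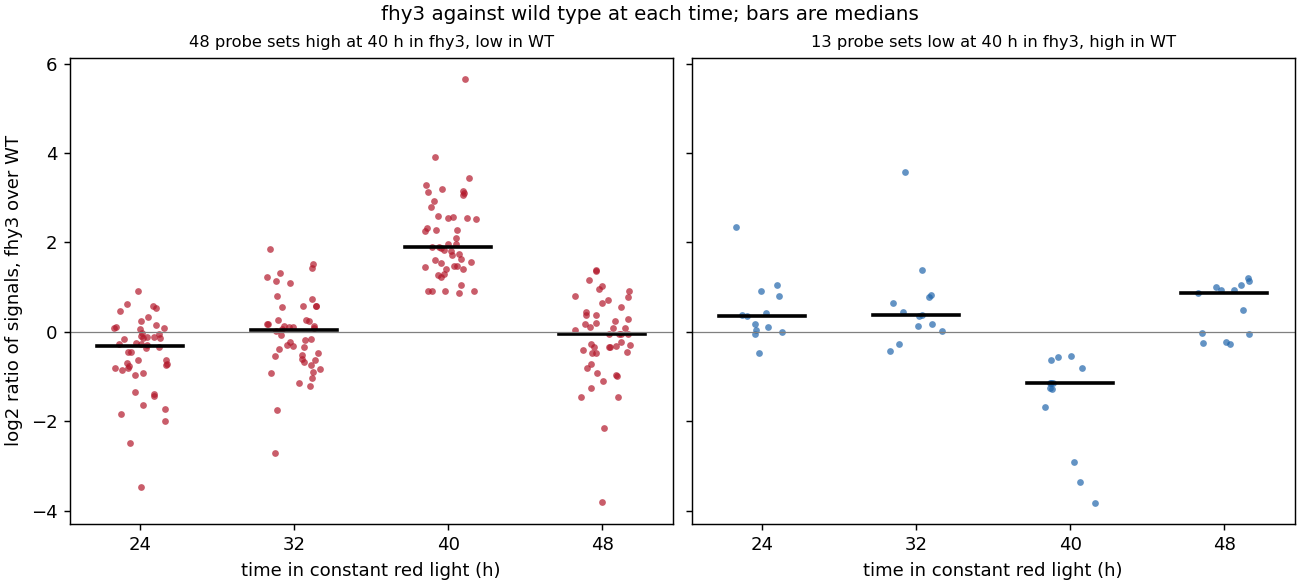
Log2 ratio of *fhy3* to wild type signal at 24, 32, 40, and 48 h for the 48 members high at 40 h in *fhy3* (left) and the 13 low at 40 h in *fhy3* (right), with points spread sideways for legibility and bars at the medians. At 40 h every member lies on the side the rule set, and at the other times the points lie on both sides of 0.

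The named members just inside the threshold were *AT1G15410* and *AT1G19380* in the larger set and *CIL* and *AT4G31360* in the smaller. The wild type trough of *AT1G15410* was 1.32-fold under the nearest other signal, and the *fhy3* trough of *AT4G31360* was 1.3-fold under it. Just outside the larger set, *AT2G31110* had 163 at 40 h in *fhy3* against 126 at 32 h, a ratio of 1.297, and *AT4G32870* had a wild type trough of 81.2 against 105 at 32 h, a ratio of 1.292. Just outside the smaller set, *OCT5*, an organic cation transporter, reached a ratio of 1.286, and *AT1G65010* reached 1.256.

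The change between dawn and afternoon was compared with limma on log2 signals over all 12896 probe sets, with Benjamini-Hochberg adjustment at 0.05. It leaves out the 40 h signals, but the rule set these against the 24, 32, and 48 h signals that it uses, so that the members' calls are a description. The afternoon is 1 array in each genotype. The 24 and 48 h arrays of a genotype served as its repeated dawn samples, so that the p-values measure the spread between these and not between biological replicates. In *fhy3* no probe set passed this test (0%, with 971 at an unadjusted p under 0.05), and none of the 61 members did. In wild type 576 passed (4.47%), of which 211 were higher (1.64%) and 365 lower (2.83%) in the afternoon. A single member was among these, the unnamed 255500_at. Its *fhy3* signals were 56.6 at 32 h and 86.4 and 92.3 at dawn. In wild type it had 192 at 32 h and 480.3 and 410.1 at dawn, a log2 difference of −1.21 (SE 0.15, adjusted p = 0.0315 from limma). With arrays scaled to the same median the split of wild type calls was 345 higher and 328 lower. Without the *fhy3* 24 h or 48 h array none passed in wild type, and without the wild type 24 h or 48 h array 1015 and 1095 passed. The members among these were 7 without the wild type 24 h array (2 higher and 5 lower) and 8 without the 48 h array (all lower).

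The genotype difference in this afternoon change was also tested. No probe set passed (0%, with 1908 at an unadjusted p under 0.05, by limma), and the smallest adjusted p of any member was 0.249. Without the wild type 24 h array 185 passed, 1 of which was a member, and without the 48 h array 129 passed with no member. In the larger set the difference was above 0 in 38 of 48 members (79.2%), beside 53.6% of all probe sets considered, with a median of 0.27 on the log2 scale beside 0.03. The same signals entered the rule, and no test was made of this count. With arrays scaled to the same median the median over all probe sets moved to −0.10. In the smaller set it was above 0 in 6 of 13, with a median of −0.14.

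By position alone, 18 of the 48 had a 32 h signal above both dawn signals in *fhy3* (39.1% of all probe sets considered did) and 9 below both (34.3%). In wild type 14 were above both (38.5%) and 26 below both (42.1%). The 32 h signal was above both dawn signals in *fhy3* and below both in wild type in 7 of the 48 (14.6%), near the 12.4% of all probe sets considered. Named members with this order were *Prx37*, *AT5G60250*, *AT3G14280*, and *AT2G39980*. Some of these orders rest on nearly equal signals of single arrays. In *fhy3*, *AT2G39980* had 217 at 32 h and 215 at 48 h, and *AT5G60250* had 73.4 and 72.0. For *Prx37* the 32 h signal was 1.47-fold the dawn mean in *fhy3* and 0.557 of it in wild type. In the smaller set *AOP3* and *CIL*, 2 of 13, had the opposite order (15.4%, beside 9.78% of all probe sets considered).

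**Figure D5:**
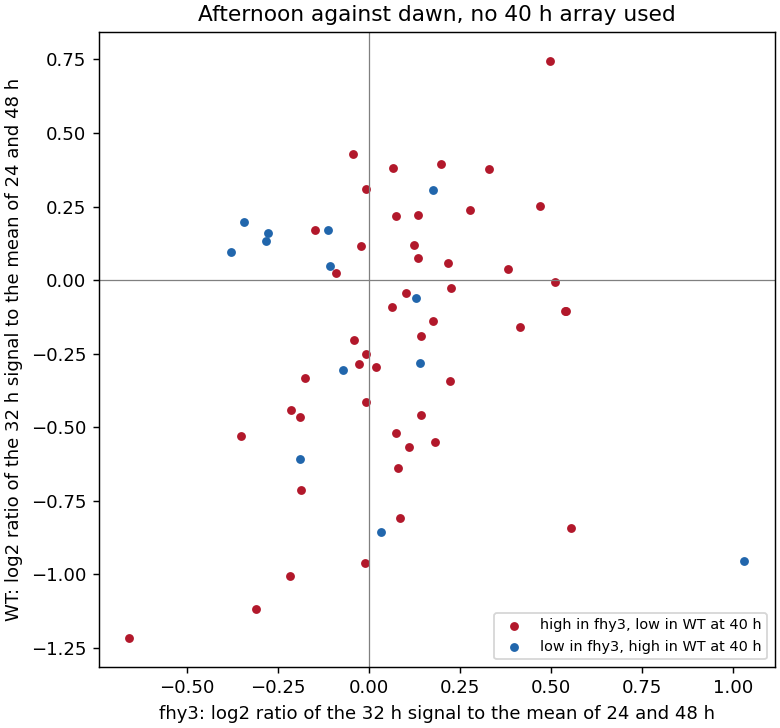
Log2 ratio of the 32 h signal to the mean of the 24 and 48 h signals in *fhy3* (horizontal axis) and in wild type (vertical axis) for the 48 members high at 40 h in *fhy3* (red) and the 13 low at 40 h in *fhy3* (blue). Points of both sets fall in all 4 quadrants, and no member passed the test of the genotype difference.

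The signals a cycle apart, at 24 and 48 h, often differed in the members. These signals entered the rule, and the counts are a description. In the larger set they differed by 1.3-fold or more in 20 of 48 members in *fhy3* (41.7%, beside 7.06% of all probe sets considered) and in 19 in wild type (39.6%, beside 12.7%). In *fhy3* the 48 h signal was the higher in 19 of these 20, beside 675 of the 911 probe sets that differed over all considered. The same held in *fhy3* for 40 of 43 probe sets that differed among those high at 40 h in both genotypes. It held for 176 of 183 among those high in *fhy3* and neither high nor low in wild type. In wild type the 48 h signal was the higher in 6 of 19, beside 1133 of 1643 over all and 12 of 78 among those low in both genotypes. The direction was thus not particular to the members. In the smaller set they differed in 4 of 13 in *fhy3* and in 5 in wild type. Among the probe sets high at 40 h in both genotypes 32.6% differed in *fhy3* and 52.3% in wild type, and among those low in both 15.4% and 25.1%. A trend over the 24 h between the dawn samples and a change of the night phase cannot be told apart with 1 cycle sampled.

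The mean level over the 4 times was compared between the genotypes in the same limma fit. It includes the 40 h signals that chose the members, and the counts are therefore given as a description. Of all probe sets considered 1628 passed (12.6%), 869 higher (6.74%) and 759 lower (5.89%) in *fhy3*. With arrays scaled to the same median the split was 754 higher and 1252 lower. In the larger set 17 were higher and 5 lower in *fhy3*, and in the smaller 1 was higher and 1 lower. Named genes among those higher were *AT4G33720*, *AT5G19890*, *AT3G18280*, *AT3G14280*, *TBL41*, *AT2G39980*, *Prx37*, *AT3G47510*, and *AT1G19380*, and the lower ones *AT3G45730* and *AT2G45460*. The 4-array mean was 193 in *fhy3* and 27.5 in wild type for *AT4G33720*, and 99.7 in *fhy3* and 199 in wild type for *AT3G45730*. Over 24, 32, and 48 h the mean in *fhy3* was 0.792 of that in wild type for *AT4G33720*. The higher level of *AT4G33720* thus rests on the 40 h array. The same ratio was 1.011 for *AT2G39980*, 1.047 for *AT3G47510*, and 1.064 for *AT5G19890*, which were nearly level outside 40 h. It was 1.249 for *AT3G14280*, 1.296 for *AT1G19380*, 1.832 for *AT3G18280*, 1.873 for *Prx37*, and 1.986 for *TBL41*. With the genotypes paired by sampling time, a fit added after the data had been seen, 319 probe sets passed, 151 higher and 168 lower, and no member did (9 members at an unadjusted p under 0.05). That fit counts a genotype difference that varies with time as error. The members were chosen for such a difference, so that the rule itself works against their passing. The calls also depended on single arrays. Without the *fhy3* 24 h or 48 h array no probe set passed, and without the wild type 48 h array 2666 did.

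With the dawn arrays alone, a comparison chosen after the data had been seen, 92 probe sets passed (0.713%), 25 higher (0.194%) and 67 lower (0.52%) in *fhy3*. The dawn signals entered the rule, and the members' calls are a description. Of the members, 5 of the larger set were lower in *fhy3* at dawn, namely *AT3G45730*, *AT5G60250*, and the unnamed 255500_at, 248668_at, and 257809_at, and *AOP3* of the smaller set was higher. The dawn mean was 24.0 in *fhy3* and 303 in wild type for *AT3G45730*, 69.2 in *fhy3* and 206 in wild type for *AT5G60250*, and 1797 in *fhy3* and 956 in wild type for *AOP3*. None of the 17 members with a higher mean level passed at dawn. Without the *fhy3* 24 h or 48 h array no probe set passed this comparison, and without the wild type 24 h or 48 h array 240 and 489 passed.

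Rhythm was scored by a correlation with a 24 h sine wave and a 1.5-fold predicted range, after the study's methods. Their alternative to the range, a difference between extremes of 250-fold the overall mean signal, would be 103376, above the highest signal of 15042, and was not applied. By these criteria 20 of the 48 were rhythmic in *fhy3* (9.7% of all probe sets considered), with fitted peaks 15 to 17 h after dawn. In wild type 13 were rhythmic (10.3%), with peaks at 2 to 6 h, and 6 were rhythmic in both genotypes. Of the smaller set 3 were rhythmic in each genotype and only *AOP3* was in both, with a fitted peak at 3 h in *fhy3* and at 15 h in wild type. The rule and these criteria read the same signals, and the peak times restate the choice of members.

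Of 22 lists of genes for the clock, light signalling, metabolism, hormones, and stress, only those for the cell wall (*XTH18*) and for glucosinolates (*AOP3*) held a member, though few genes of most lists could be named on the array and the 35 unnamed members could be placed in none. For the mean level 4 of the 11 cell wall genes were higher in *fhy3*, 2 were lower, and 5 did not pass. Of the 4 glucosinolate genes none was higher, *AOP1* was lower, and 3 did not pass. Among the 26 named members the closest pair in the genome, *AT3G14280* and *AT3G14850* (*TBL41*), was separated by 62 places in the order of protein-coding genes. Promoter sequences were not analysed here.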

How the data were processed

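The deposited values are linear intensity signals of 8 Affymetrix ATH1 arrays, 1 for each genotype and time, which the authors had scaled between arrays. MAS5 is named in the submitters' processing notes, while the study's methods name D-chip and a normalisation alongside white light arrays not used here. Which of them gave the deposited signals is not settled by the sources. Genes were named from the platform annotation of probe sets (13513 with 1 gene, 503 with several, 8794 not listed, including 64 controls), with symbols from a RefSeq gene table. That table gives no role for most codes, and none is stated for them.

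Control probe sets and 9850 with a mean under 100 were left out, and members were found by the ratio rule. The members and gene lists were chosen with earlier results of these data known. limma 3.58.1 (R 4.3.3) was fitted to log2 signals, with those under 5% of the mean of all probe sets (20.7) set to that value, and 6 coefficients for dawn (24 and 48 h), afternoon, and night in each genotype. Only 2 degrees of freedom remain for the residual. Benjamini-Hochberg adjustment covered 12896 probe sets, and 0.05 was the threshold. The fit was run on simulated data in which the 24 and 48 h signals of a genotype shared the same level apart from noise. This checks the code and not the use of these arrays as repeats. Rhythm was scored against 24 sine waves of 24 h period, with two-sided p under 0.01. The named genes were all members paired with 1 gene, which the rule of largest night change, list membership, smallest p, nearness to the threshold, and highest signal came to include. Unnamed probe sets in the text were chosen after their values were seen. Alternatives were the ratio, the filter, the floor, quantile or median scaling, leaving out arrays, and a block for sampling time. The number of arrays limits the precision.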

Additional observations from a re-analysis of the deposited data

Results flagged for a closer look

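Of the probe sets high at 40 h in *fhy3*, 7 had a 32 h signal above both dawn signals in *fhy3* and below both in wild type. These are 14.6% of the 48, near the 12.4% of all probe sets considered. They are *Prx37*, *AT5G60250*, *AT3G14280*, *AT2G39980*, and the unnamed 248668_at, 249152_s_at, and 258570_at. The 32 h signal of 249152_s_at was 1.45-fold the dawn mean in *fhy3* and 0.929 of it in wild type, and that of *AT5G60250* was 1.06-fold and 0.570 of it. Of the probe sets low at 40 h in *fhy3*, 2 had the reverse order, 15.4% of the 13 beside 9.78% of all. *AOP3* was at 0.789 of the dawn mean in *fhy3* and 1.15-fold in wild type, and *CIL* at 0.770 in *fhy3* and 1.07-fold in wild type. Some of these orders rest on nearly equal signals of single arrays. *AT2G39980* had 217 at 32 h and 215 at 48 h in *fhy3*, and *CIL* had 197 at 32 h and 196 at 24 h in wild type. The limma test of the genotype difference in the afternoon change passed for none of these 9.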

How the results depend on the processing

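The 48 members high in *fhy3* became 99 with a ratio of 1.2, 25 with 1.5, and 4 with 2, 29 with a mean of at least 200, 89 without the 24 h arrays, and 97 without the 32 h arrays. The 13 low in *fhy3* became 33, 4, and 0 with those ratios, 20 with arrays scaled to the same median, and 24, 25, and 26 without the 24, 32, or 48 h arrays. With quantile normalisation 39 of the 48 and 10 of the 13 remained members, and with median scaling 44 of the 48 and 13 of the 13 did. Of the 26 named members 18 remained with quantile normalisation and 24 with median scaling, and none reversed. The 1628 calls for the mean level became 589 with the filter at 5% of the overall mean, 92 with the dawn arrays alone and 319 with the genotypes paired by sampling time (both added after the data had been seen), and between 0 and 2666 with a dawn array left out. Calls for the afternoon change in *fhy3* went to 98 with no filter. Those in wild type, 576, became 0 with the 5% filter and between 0 and 1095 with a dawn array left out, the WT 24 h array giving 1015. The genotype difference gave 566 with no filter and between 0 and 185 with a dawn array left out, with the WT 24 h array giving 185 and the WT 48 h array 129. The cause of these shifts was not tested. Arrays could not be paired by replicate number, each genotype and time having 1 array numbered as replicate 1. The genotypes were paired by sampling time instead, as given above. Signals near the floor of 20.7 limit the ratios of *AT4G33720* and *AT3G45730*. No time point has a replicate that could give the error of a single night signal.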
